A study of Mus musculus with 2 samples.

Results

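The core circadian clock loop of the liver was described here as 10 genes, taken by name: the activators Arntl, Clock and Npas2 and the repressors Per1, Per2, Per3, Cry1, Cry2, Nr1d1 and Nr1d2. All 10 were found among the 18193 genes that probe sets with exactly 1 gene symbol represent on the array, and 23 probe sets carried their symbols. Livers came from untreated mice on postnatal day 30, all bred onto C57BL/6 for at least 6 generations, and either wild type (Yap+/+) or with 1 of their 2 Yap copies disrupted (Yap+/-). The livers of 5 mice per genotype were pooled and each pool was read on 1 Affymetrix GeneChip array, so each genotype is 1 sample and no difference could be tested. The labels used here give neither the time of day at which livers were taken nor the sex or feeding of the mice, and genotype and pool cannot be told apart.

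The mammalian clock is a feedback loop of transcription. BMAL1, the product of Arntl, pairs with CLOCK or its relative NPAS2 and binds E-box sequences in the Per, Cry and Nr1d genes, and the PER and CRY proteins return to the nucleus and inhibit that pair. The REV-ERB receptors encoded by Nr1d1 and Nr1d2 repress Arntl through a separate DNA element for which the ROR receptors compete as activators. In liver the messages of most of these genes swing widely over the day, with Arntl and the Per and Nr1d genes at opposite times, and the timing follows feeding.

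On the brightest probe set of each gene, the core clock genes differed little between the arrays, and Per1 was the member that passed the threshold used here. By that choice Per1 was the most different member, 1.45-fold higher in Yap+/-, followed in that direction by Nr1d1 at 1.19-fold and Nr1d2 at 1.14-fold higher. Arntl was 1.21-fold lower and Clock differed by 1.02-fold. Per3 differed by -0.031 on the log2 scale on its brightest probe set, but its next in brightness were 1.46-fold and 1.71-fold higher, so the ranking depends on this choice. Values are log2 probe set values as deposited, the difference is Yap+/- minus Yap+/+, and the brightest probe set by the mean of both arrays represents a gene. Genes with a mean of at least 6, called measured, numbered 9299, and 7 of the 10 members were among them. Of those 7, 1 member (Per1) was at least 25% higher on the Yap+/- array, against 3.86% of all measured genes. Lower by the same factor, which is at least 20% lower, were 0 members, against 3.18% of measured genes. This factor is called the threshold below. At 1.5-fold and at 2-fold the counts were 0 of 7, against 1.34% and 0.323% of measured genes in either direction. The median difference of the 7 members was 0.13, where that of all measured genes was 0.00, and without Per1 it was 0.054.

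**Figure D1:**
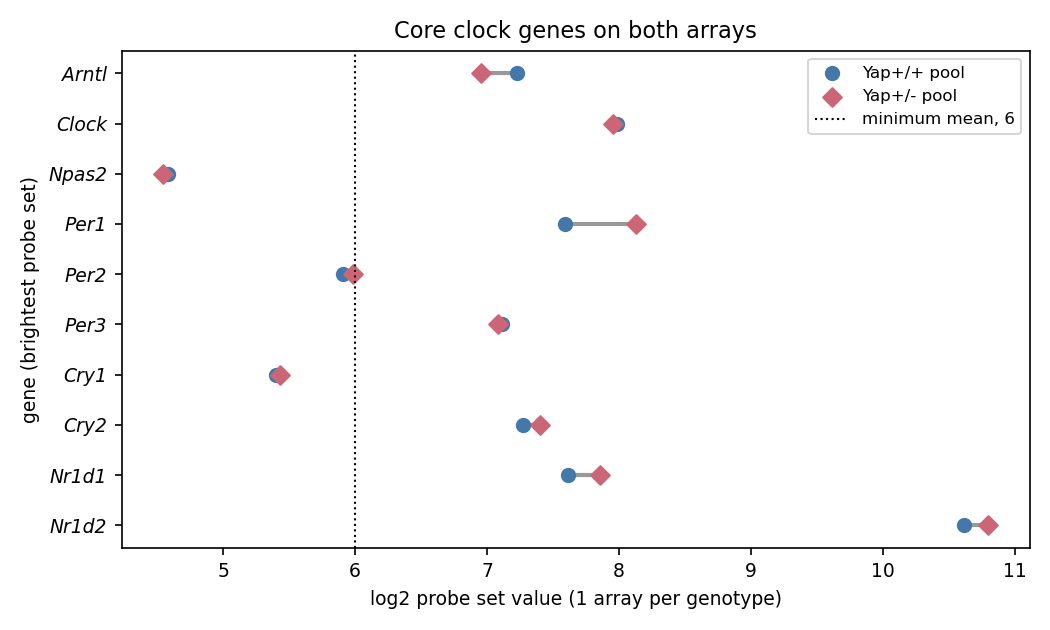
Log2 value of the brightest probe set of each core clock gene (x axis) on the Yap+/+ array (circles) and the Yap+/- array (diamonds), with 1 pool of 5 livers per array and a dotted line at the minimum mean of 6. Per1 has the widest gap, 7.59 against 8.13, Arntl is the measured member with the widest gap in the other direction, and positions of different genes cannot be compared because probe sets differ in brightness.

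Some scale for these differences comes from the arrays themselves. The robust SD of the difference over all measured genes was 0.15. Where a gene had more than 1 measured probe set, the differences of its 2 brightest scattered around each other with a robust SD of 0.17 (3406 genes). Both figures come from this pair of arrays alone. The first holds any real difference between the 2 pools as well as technical scatter, so it is not a measure of noise by itself. Neither gives the spread between mice or between pools of the same genotype. Yap1 itself differed by -0.15 on its brighter probe set, from 9.40 to 9.24, and by -0.24 on the other, under the minimum. The genotype labels are thus only weakly checked by Yap1.

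Among the activators, Arntl encodes the obligate partner of the pair. Its brighter probe set (1425099_a_at) read 7.23 in Yap+/+ and 6.96 in Yap+/-, a difference of -0.27. Of all measured genes, 10.3% differed by at least as much in either direction. Its second probe set (1457740_at) read 4.66 and 4.63, under the minimum, with a difference of -0.033. Both probe sets were thus lower in Yap+/-, and the size of the difference rests on 1 of them. Clock, which encodes the usual partner of BMAL1, had 3 measured probe sets. The brightest read 7.98 in Yap+/+ and 7.96 in Yap+/-, the next 7.78 and 7.89, and the third 7.66 and 7.67. Their differences of -0.023, 0.11 and 0.014 did not share a direction and all lay within the robust SD of 0.15, and 86.7% of measured genes differed by at least as much as the brightest. Npas2, the relative that can replace Clock, read 4.58 and 4.54 on its brighter probe set and 4.57 and 4.22 on the other, both under the minimum. The second of these, a difference of -0.35, lies at a level not shown to be above background.

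The Per genes encode the PAS-domain repressors. Per1, an early responder to hormonal signals as well as a clock gene, had a single probe set (1449851_at), which read 7.59 in Yap+/+ and 8.13 in Yap+/-. The difference of 0.54 was reached or passed in either direction by 1.69% of measured genes, which places Per1 at rank 157 of 9299. No second probe set with the symbol alone was there to compare. Per2, the closest relative of Per1 in clock function, stayed under the minimum on all 3 of its probe sets. They read 5.91 and 5.98, 5.54 and 5.72, and 5.02 and 4.87 in Yap+/+ and Yap+/- respectively. The differences of 0.075, 0.18 and -0.15 go both ways, so these arrays give no direction for Per2.

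Per3, a member that is dispensable for the loop itself, was the gene on which the probe sets disagreed. Its brightest probe set (1421087_at) read 7.11 in Yap+/+ and 7.08 in Yap+/-, a difference of -0.031, which 82.4% of measured genes reached or passed. The next 2 in brightness were higher in Yap+/-. Probe set 1442243_at went from 6.29 to 6.84, which is 1.46-fold, and 1458176_at from 6.01 to 6.79, which is 1.71-fold. Probe set 1441445_at read 5.41 and 6.33, nominally 1.89-fold higher with a mean under the minimum. The remaining probe sets, 1421086_at and 1460662_at, read 4.75 and 4.85 and 4.40 and 4.45, close to each other on both arrays. The 3 probe sets with large differences are annotated to records other than the RefSeq mRNA, while the brightest and the 2 dimmest are annotated to the RefSeq mRNA. Where each lies in the Per3 transcript was not analysed here.

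The disagreement at Per3 was wide for this table. Over its 3 measured probe sets the differences spanned 0.81, against a median span of 0.24 over the 1152 genes with at least 3 measured probe sets, and 1.74% of those genes spanned as much. For Clock the span was 0.13, which 78.6% of those genes reached or passed. The choice of the brightest probe set therefore decides how Per3 is read: its difference was -0.031 with that choice and 0.39 as the mean over all 6 probe sets.

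**Figure D2:**
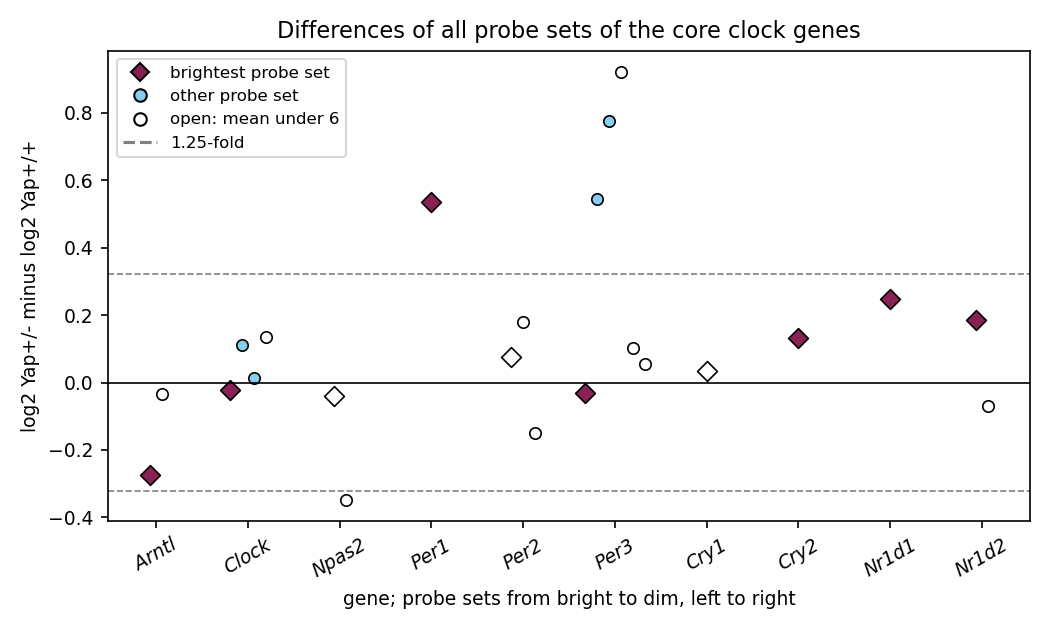
Log2 difference, Yap+/- minus Yap+/+, of every probe set of the 10 genes, ordered from bright to dim within a gene. Diamonds mark the brightest probe set, circles the others, open symbols a mean under 6, and dashed lines the threshold of 25% higher and 20% lower. For Per3 the brightest lies at -0.031 while 3 others lie between 0.54 and 0.92, and the probe sets of Clock lie between -0.023 and 0.14.

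The Cry genes encode the cryptochromes, the strongest repressors of the BMAL1 and CLOCK pair. On its only probe set Cry2 read 7.27 in Yap+/+ and 7.40 in Yap+/-, a difference of 0.13, within the robust SD and reached or passed by 37.8% of measured genes. Cry1 read 5.40 and 5.43, a difference of 0.033 at a level under the minimum. Neither cryptochrome separated the arrays beyond the scatter of measured genes.

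The REV-ERB genes were both higher in Yap+/-. Nr1d1, which encodes REV-ERB alpha, read 7.61 in Yap+/+ and 7.86 in Yap+/- (probe set 1426464_at), a difference of 0.25 that 13.3% of measured genes reached or passed. Nr1d2, which encodes REV-ERB beta, read 10.6 and 10.8 (1416958_at), a difference of 0.19 that 23.0% of measured genes reached or passed. Its second probe set, at 3.63 and 3.56, was dim, with a difference of -0.070. Nr1d1 lies tail to tail with Thra, the gene of thyroid hormone receptor alpha, and the ends of the genes overlap in the RefSeq table. The 3 probe sets of Thra were all measured and all lower in Yap+/-, with differences of -0.31, -0.16 and -0.026, so the neighbours read in opposite directions.

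By role, and counting members under the minimum too, the 3 activators read lower and 6 of 7 repressors higher in Yap+/- on the brightest probe set, Per3 being the exception. Many of these directions are weak: the probe sets of Clock, of Per2 and of Per3 went both ways, and Npas2 and Cry1 were under the minimum. Leaving these aside, Arntl was lower and Per1, Cry2, Nr1d1 and Nr1d2 were higher, Cry2 by less than the robust SD. Nr1d2 was higher on its brighter probe set alone, and its second, under the minimum, differed by -0.070. Among measured members alone, 4 of 5 repressors were higher and 2 of 2 activators lower, where 48.8% of all measured genes were higher by any amount and 49.6% lower. The median difference was 0.19 over the measured repressors and -0.15 over the measured activators, a gap of 0.34. The gap was 0.17 over all 10 members, 0.21 with only probe sets without a suffix and 0.13 with the mean of all probe sets, so its size depends on these choices. At 0.21 and at 0.13 Arntl was under the minimum, and Clock was the only activator counted. With the mean of all probe sets in place of the brightest, Clock turned from -0.023 to 0.060, so the direction of Clock is not settled. Per1 and Arntl were 0.81 apart in their differences.

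**Figure D3:**
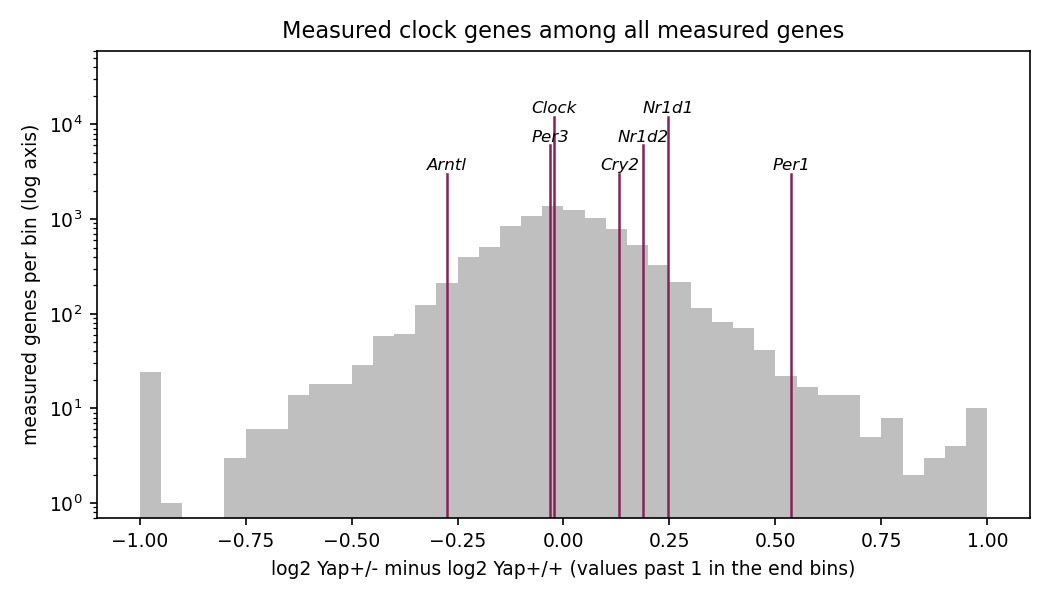
Histogram of the log2 difference, Yap+/- minus Yap+/+, over 9299 measured genes (grey, log axis for genes per bin, values past 1 gathered in the end bins), with the 7 measured clock genes as vertical lines. Per1 at 0.54 stands in the upper tail, Arntl at -0.27 and Nr1d1 at 0.25 on the shoulders, and Clock and Per3 near 0.

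Short promoter windows of the members were searched for DNA elements of the loop and of its inputs, and elements elsewhere would be missed. Of the 10 genes, 9 had an entry in the RefSeq promoter table of build GRCm38.p6, which gives 250 bases before and 50 after an annotated start, in 13 windows, and Per2 had none. Both strands were searched for the E-box CACGTG, the related E-prime box CACGTT, the D-box TTATGTAA, the core TAGGTCA of the element shared by REV-ERB and ROR receptors, and the cAMP response element TGACGTCA. The E-box was found in 2 of the 9 genes (Per1 and Cry1), in 2 of their 13 windows, where 7.15% of all 32851 promoter windows hold it. The E-prime box was found in 3 (Cry1, Cry2 and Nr1d1), in 3 of 13 windows against 4.68% of all windows. The D-box was found in Per3 alone, in 1 of 13 windows against 0.938%, and the TAGGTCA core in Arntl alone, in 1 of 13 against 2.61%. The cAMP response element was found in 0 of the 13 windows, against 1.79%. The sequences around these matches are shown so that the elements of Per1, Nr1d1 and the Cry genes can be set beside those of Per3 and Arntl. Matches are in capitals, the strand is that of the gene, and AACGTG is the E-prime box read from its opposite strand.
Per1 E-box, chr11:69098738-69098833, plus strand: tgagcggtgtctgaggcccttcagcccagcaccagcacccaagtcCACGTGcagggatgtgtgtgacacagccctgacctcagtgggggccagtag
Nr1d1 E-prime box, chr11:98775378-98775450, minus strand: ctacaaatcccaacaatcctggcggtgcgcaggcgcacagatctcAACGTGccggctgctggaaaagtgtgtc
Cry1 E-prime box and E-box, chr10:85185064-85185178, minus strand: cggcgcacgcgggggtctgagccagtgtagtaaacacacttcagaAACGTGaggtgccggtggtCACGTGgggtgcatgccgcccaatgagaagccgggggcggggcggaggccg
Cry2 E-prime box, chr2:92434185-92434280, minus strand: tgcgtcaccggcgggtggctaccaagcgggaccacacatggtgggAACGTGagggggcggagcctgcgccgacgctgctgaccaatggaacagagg
Per3 D-boxes, chr4:151044771-151044915, minus strand: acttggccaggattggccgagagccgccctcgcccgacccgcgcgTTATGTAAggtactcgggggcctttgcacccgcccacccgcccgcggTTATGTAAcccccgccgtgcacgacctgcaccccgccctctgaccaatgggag
Arntl TAGGTCA core, chr7:113207531-113207557, plus strand: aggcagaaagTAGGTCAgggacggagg

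Read against the expression values, the genes with an E-box or E-prime box in these windows were Per1 (difference 0.54), Nr1d1 (0.25), Cry2 (0.13) and Cry1 (0.033, under the minimum). None of the searched elements was found in the windows of Nr1d2 (0.19), Clock (-0.023) and Npas2 (-0.040, under the minimum). The E-box of Per1 begins at position -166 from the start and the E-prime box of Nr1d1 at -28. Arntl, with the receptor element core at position 31 after the start, differed by -0.27. Per3 carries the D-box at both -205 and -158, and its probe sets disagreed as described. The D-box is the site of DBP, whose gene was 1.38-fold higher in Yap+/-, from 9.81 to 10.3, and its second probe set was higher too, from 8.22 to 8.43. A match of letters is a description of the window and shows neither binding nor a cause, and elements outside these windows were not searched.

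Genes around the loop were described from lists of regulators, outputs and inputs, which overlap, so that a gene can count in 2 of them. Accessory repressors and receptors had a median difference of -0.0069. Of 6 measured genes, 0 passed the threshold, against 3.86% higher and 3.18% lower of all measured genes. Bhlhe40, whose product DEC1 competes for E-boxes, came nearest, from 9.61 to 9.93, just under it. Nfil3, which encodes the D-box repressor E4BP4, read 8.01 and 8.05. Rora, the activating receptor on the element in Arntl, read 9.31 and 9.27 on its brightest probe set, and its 9 probe sets ranged in difference from -0.34 to 0.32. Ciart, a repressor of the CLOCK pair, read 5.74 and 5.83, under the minimum.

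Enzymes listed as acting on clock proteins had a median difference of 0.037. Of 17 measured kinases, ligases and phosphatases, 2 were higher past the threshold and 0 lower, against 3.86% and 3.18% of all measured genes. The 2 were Usp2, a deubiquitinase whose own message cycles in liver, at 1.60-fold with both probe sets higher, and Csnk1e, the PER kinase CK1 epsilon. Csnk1e went from 5.94 to 6.45, or 1.42-fold, on its brightest probe set, while its next, under the minimum, differed by -0.16. Csnk1d, the kinase that shares this role, read 9.81 and 9.91 on its brightest probe set, and 2 of its 5 measured probe sets were higher. The lowest of the list were Csnk2a2, Prkaa2 and Csnk2a1, at 1.16-fold, 1.16-fold and 1.14-fold lower on the brightest probe set. Their measured probe sets disagreed: Csnk2a2 was higher on 1 of 5, Prkaa2 on 1 of 2 and Csnk2a1 on 2 of 5.

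Cofactors and chromatin factors of the loop had 2 of 18 measured genes higher past the threshold and 0 lower, against 3.86% and 3.18% of all measured genes, and a median of -0.00088. Ppargc1a, which encodes PGC-1 alpha, a coactivator of ROR receptors at Arntl, read 8.06 in Yap+/+ and 8.56 in Yap+/-, and all 5 of its probe sets were higher, by 0.27 to 0.80. Kmt2a, a histone methyltransferase that works with CLOCK, was 1.27-fold higher on 1 probe set, and its other probe set, under the minimum, differed by -0.27. Hdac3, the deacetylase recruited by REV-ERB, read 8.81 and 8.70, a difference of -0.11.

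Clock-controlled outputs differed in both directions. Of 19 measured outputs, 5 were higher and 3 lower past the threshold, against 3.86% and 3.18% of all measured genes, and the median was 0.11. The list was drawn up with earlier results known, so these counts support nothing by themselves. The higher genes were Lpin1, a phosphatidate phosphatase, at 2.76-fold, Usp2, Alas1, the first enzyme of haem synthesis, at 1.47-fold, Dbp, and Rgs16, a regulator of G protein signalling, at 1.37-fold. Rgs16 was on the list but is named here after its value was seen. The 3 probe sets of Rgs16 were all higher, by 0.016 to 0.47. The lower genes were Cyp7a1, which catalyses the first step from cholesterol to bile acids, at 2.39-fold, Noct, a rhythmic phosphatase, at 2.36-fold, and Elovl3, a fatty acid elongase, at 1.36-fold. Of the other D-box factors, Tef read 9.65 and 9.75 and Hlf 7.71 and 7.62. The outputs thus did not share a direction.

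Genes listed as responsive to REV-ERB and ROR were few. Of 6 measured, 1 was higher past the threshold and 2 lower, against 3.86% and 3.18% of all measured genes. The median was -0.15, and 2 of the 6 are members of the loop itself. Without these members the median over 4 genes was -0.20, and the 2 lower genes, Cyp7a1 and Elovl3, are outputs already described. The higher gene was E2f8, a transcriptional repressor of cell cycle genes, from 6.30 to 6.73.

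Per1 also answers glucocorticoid and cAMP signals, and genes of those inputs went both ways. Of 16 measured, 4 were higher past the threshold and 3 lower, against 3.86% and 3.18% of all measured genes, and the median was 0.063. Higher were Zbtb16, a glucocorticoid-responsive transcription factor, at 2.04-fold, Klf10 at 1.57-fold, Fkbp5, a chaperone of the glucocorticoid receptor, at 1.44-fold, and Ppargc1a, which was on the list but is named here after its value was seen. Lower were Nr4a1, an immediate early receptor, at 3.29-fold, Dusp1, a MAP kinase phosphatase, at 1.63-fold, and the kinase Sgk1 at 1.55-fold. The glucocorticoid-induced genes among these, Zbtb16 and Fkbp5 against Dusp1 and Sgk1, differed in opposite directions. Fkbp5 was higher on its 1 measured probe set, and its others, under the minimum, differed by -0.075 and -0.063. Nr3c1, the receptor, read 9.71 on both arrays on its brightest probe set, and its 6 probe sets ranged in difference from -0.21 to 0.40.

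**Figure D4:**
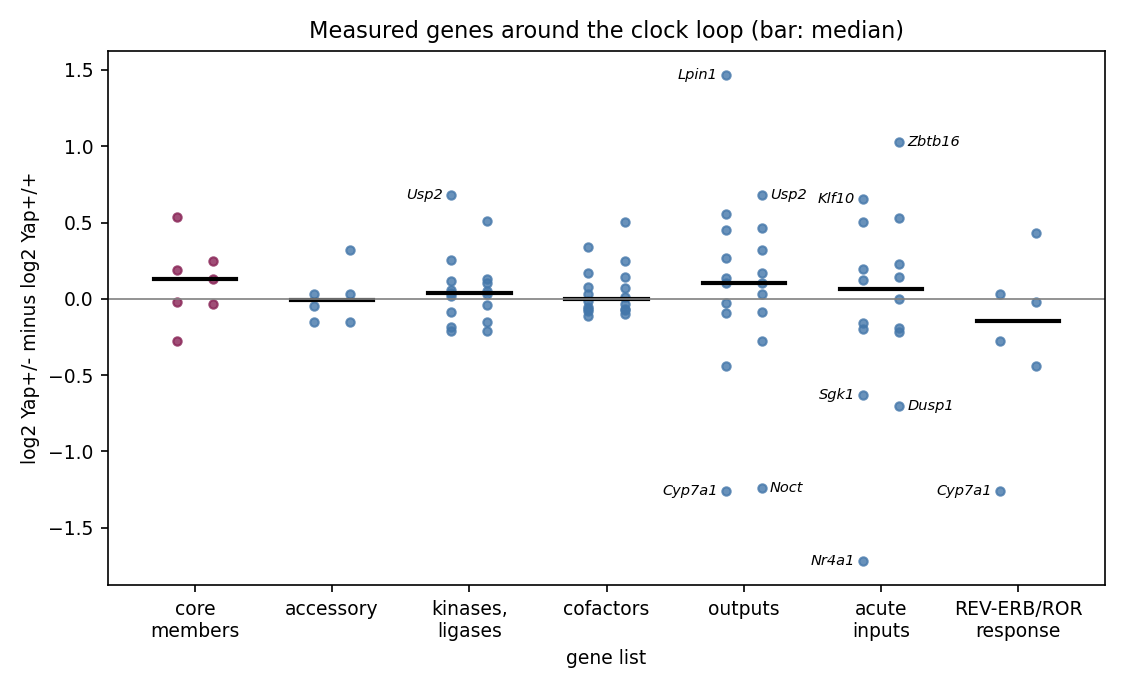
Log2 difference, Yap+/- minus Yap+/+, of each measured gene of the core loop and of 6 related lists (points, with the median as a bar, and names past 0.6). The core members lie between -0.27 and 0.54 and the outputs between -1.26 and 1.47.

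The tissue and the arrays bear on all of these values. All 6 hepatocyte markers were measured, 2 higher and 3 lower, and their summed level on the log2 scale was 17.2 on both arrays. Kupffer cell markers were higher in 6 of 6, with a summed level of 12.3 in Yap+/+ and 12.7 in Yap+/-, and endothelial markers in 4 of 6, at 11.6 and 11.8, with Pecam1 under the minimum. Stellate markers were higher in 2 of 5 (12.4 and 12.3), bile duct markers in 1 of 5 (8.53 and 7.60, with Krt19, Krt7, Epcam and Sox9 under the minimum), neutrophil markers in 2 of 3 (6.36 and 7.66, with S100a8 and Mmp8 under it) and T and B cell markers in 3 of 4 (7.56 and 7.91, with Cd3e, Cd3g and Cd79a under it). In whole liver, fewer cells of a type and less RNA per cell cannot be told apart. Control transcripts had more 3-prime relative to 5-prime signal on the Yap+/- array, by 0.20 to 0.22 on the log2 scale. The part of these values in the clock differences was not tested.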

How the data were processed

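RNA of pooled livers was read on 2 arrays, 1 per genotype. Values are on the log2 scale, per probe set, as the authors deposited them, and RMA and Partek 6.5 are named per the submitters' processing notes, with no settings given in the sources used here. Once sorted, the 2 columns were within 0.047 of each other throughout, which is how quantile normalisation leaves them, and a change in total RNA would then hardly show. Of 45101 probe sets, 34945 were named by exactly 1 symbol in the platform annotation, array controls left out. The brightest represents a gene, and a mean of at least 6 over both arrays counts as measured. Differences were counted from 25% higher or, for the same factor, 20% lower. With 1 array per genotype there is no test, p-value or error, and the number of arrays limits precision.

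The members, lists and threshold were chosen with earlier results of these data known. Named genes are all 10 members with every probe set, up to 3 measured genes per direction and list with the largest differences, and Dbp, Nfil3, Bhlhe40, Rora, Ciart and Thra. Rgs16, Tef, Hlf, Csnk1d and Nr3c1, and Ppargc1a among the inputs, are listed genes named outside this rule after their values were seen. With 2 arrays no likeness of patterns can be ranked. Of 96 listed genes, 89 were matched, and some genes of the lists are not reported here. Thrb, the other neighbour listed, was under the minimum at 5.19 and 4.77. Counting was tested on simulated data with planted differences past the threshold and less scatter than in the arrays. That test checks the counting alone and does not show how often scatter passes the threshold. Alternatives were no minimum or 7, the mean of all probe sets, leaving out probe sets with a suffix (_a, _s or _x, which can match several transcripts), median centring, a lowess correction, quantile normalisation, 64 added on the linear scale and thresholds of 1.5-fold and 2-fold. Tables were computed with pandas 2.3.3 and numpy 2.4.6 under Python 3.11.15, the lowess with statsmodels 0.14.6, and plots with matplotlib 3.10.9.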

Additional observations from a re-analysis of the deposited data

Results flagged for a closer look

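A total of 3 probe sets of Per3 that represent no gene in the counts were at least 25% higher in the Yap+/- sample than in the Yap+/+ control. Their log2 differences were 0.92 (1441445_at, mean under the minimum), 0.78 (1458176_at) and 0.54 (1442243_at), while the brightest probe set of Per3 differed by -0.031. They stand out because the count of members uses the brightest probe set alone. Only probe sets higher in Yap+/- were searched for. The dimmer probe set of Npas2, with a difference of -0.35 at a mean under the minimum, could therefore not be flagged. Groups of 1 array allowed no search for an array far from others of its group.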

How the results depend on the processing

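No paired analysis was possible because each genotype has 1 array. At the threshold of 25% higher or 20% lower, 1 member was higher and 0 lower. This count held under all 8 alternatives of filter, probe set and scaling, and the count higher was 0 at 1.5-fold and at 2-fold. The filter limits what this shows. With the mean of all probe sets 5 members were counted, and Per3, at 0.39 past the threshold, was left out because its averaged level fell under the minimum. A minimum of 7 kept the same 7 members. The median difference of measured members lay between 0.054 and 0.16 under all alternatives run. The gap between repressor and activator medians was 0.34. It moved to 0.17 with no minimum and to 0.13 with the mean of all probe sets, which changes both the members counted and their values. It was 0.21 with only probe sets without a suffix. At 0.13 and at 0.21 Arntl was under the minimum, and Clock was the only activator counted. Of 59 values of single members under alternatives, 3 moved by more than the robust SD of 0.15: Per3 to 0.39 and Npas2 to -0.19 with the mean of all probe sets, and Arntl to -0.033 with only probe sets without a suffix. Leaving out a replicate was not possible with 1 array per genotype. Signals under the minimum, those of Npas2, Per2 and Cry1, are not shown to be above background.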
